A study of Homo sapiens with 4 samples.

Results

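The unfolded protein response and the ATF4 stress response were followed through 36 member genes of the 60662 genes in the deposited table of NB4 cells. The members were chosen by name as known parts of these pathways, and every one was found in the table by its symbol with 1 identifier each. They comprise 7 stress sensors and transcription factors, 13 chaperones and folding enzymes, 4 genes of ER-associated degradation, 6 genes of serine, one-carbon and asparagine synthesis, and 6 stress effectors and phosphatase subunits.

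NB4 is a human acute promyelocytic leukaemia line that carries the PML-RARα fusion. The study transduced it with a control vector (2 libraries, called vector 1 and 2) or with a vector expressing JMJD3, the histone H3 lysine 27 demethylase encoded by KDM6B (2 libraries, JMJD3 1 and 2), and sequenced polyadenylated RNA. All 4 libraries come from this single line, and the labels give no drug, no time after transduction and no statement that libraries of a group come from separate transductions, so the p-values measure only the spread between these samples. The comparison asks which genes differ when JMJD3 is expressed from a vector in cells that already express KDM6B.

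The unfolded protein response begins at sensors in the membrane of the endoplasmic reticulum (ER), encoded by ERN1, EIF2AK3 and ATF6, when unfolded proteins gather inside it. Their downstream factors XBP1, cleaved ATF6 and ATF4 raise chaperones, degradation factors and amino acid synthesis genes, and ATF4 is also reached through EIF2AK4, a kinase that responds to lack of amino acids. Much of this control acts on XBP1 splicing, ATF6 cleavage and ATF4 translation, which counts per gene do not show, and promyelocytes make large amounts of granule proteins that fold in the ER.

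The deposited counts summed to 39078443 and 40768225 in the vector libraries and to 35176388 and 34704909 in the JMJD3 libraries. Levels are given in CPM (counts per 1e6 counts of the library, its total scaled by edgeR's TMM factor), and always in the order vector 1, vector 2, JMJD3 1, JMJD3 2. A gene with 0 counts could still have up to 3 counts, or 0.0786 to 0.081 CPM depending on the library, and this floor covers counting error only. Differences are log2 fold changes of JMJD3 over vector with their standard error (SE, 2 libraries a group), from edgeR's quasi-likelihood test on 15246 genes with enough counts. A gene is said to be higher or lower by that test when its Benjamini-Hochberg adjusted p was under 0.05 over those 15246 genes.

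KDM6B (ENSG00000132510) serves as a check of the labels, with 15.8 and 13.7 CPM in the vector libraries and 37.9 and 44.1 CPM in the JMJD3 libraries. Both JMJD3 libraries lay above both vector libraries. The log2 fold change was 1.48 (SE 0.13), with an adjusted p of 0.00114 in edgeR's quasi-likelihood test. Transcripts of the vector and of the cells' own gene cannot be told apart in these counts.

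The 7 promyelocytic markers all had counts, and their summed levels were 16648 and 17462 CPM in the vector libraries and 10610 and 10562 CPM in the JMJD3 libraries. MPO was the most abundant, ELANE had only 13, 7, 1 and 2 counts, and 4 of the 7 (MPO, PRTN3, AZU1, CTSG) were lower and 2 (CD33, CEBPE) higher by edgeR's test. Of 7 erythroid markers only SLC4A1 had any count, summed at 0.027 to 0.054 CPM, and the globin genes HBA1, HBA2 and HBB were at 0. The 7 T and NK cell markers summed to 87.7, 107, 98.4 and 95.1 CPM, mostly NKG7, and CD2 was higher. The 7 plasma and B cell markers, 5 of them with a count, summed to 42.2, 49.7, 69 and 63.9 CPM, led by SDC1 in the vector libraries and by MZB1 in the JMJD3 libraries, with CD79A and MZB1 higher and MS4A1 and JCHAIN at 0. The 6 fibroblast markers, 3 of them with a count, summed to 0.432, 0.393, 0.945 and 1.08 CPM, led by PDGFRB, which was higher, with COL1A2, COL3A1 and LUM at 0. The 5 epithelial markers, 3 of them with a count, summed to 6.64, 7.49, 3.43 and 2.81 CPM, led by EPCAM in the vector libraries and by KRT8 in the JMJD3 libraries, with EPCAM lower and KRT19 and CDH1 at 0. In bulk RNA, fewer cells of a type and less RNA per cell cannot be told apart, and the part of these marker shifts in the results was not tested.

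Across genes, Pearson's r was 0.995 for the vector pair and 0.998 for the JMJD3 pair, and ranged from 0.978 to 0.985 for pairs that cross the groups. Mitochondrial genes held 7.91% and 7.65% of the vector counts and 5.73% and 5.86% of the JMJD3 counts, and their part in the results was not tested. Vector 1 carries another lane label than the other 3 libraries.

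Of the 36 members, 34 had enough counts for the test, and only CHAC1 and NUPR1 did not. Among the 34, 8 were higher and 8 lower in JMJD3 cells, beside 21.6% of all tested genes higher and 19.1% lower. At 23.5% each way, the members' shares were near these background shares. The groups did not overlap for 32 of the 34 members (17 with JMJD3 above, 15 below), beside 74.4% of all tested genes. In edgeR's test, 0 of the 34 were higher by at least 2-fold, against 7.55% of all tested genes, and 3 (ATF5, ASNS and PHGDH) were lower by at least 2-fold, against 2.82%. In edgeR by an unadjusted p under 0.05 at any fold, 11 were higher and 11 lower, beside 26.9% and 24.2% of all tested genes. DESeq2's Wald test gave 7 higher and 8 lower, beside 16.6% and 18.6%. The median log2 fold change of the members was 0.08, beside 0.04 over all tested genes, and 19 of the 34 were positive, beside 8035 of 15246. EIF2AK3 and DNAJB9, each at 0.99, lay just under a 2-fold rise, and passed it under several alternatives, among them upper quartile scaling (1.03 and 1.02). Without vector 1 EIF2AK3 was at 1.18, and without vector 2 DNAJB9 was at 1.08. With limma on log2(FPKM + 0.1) DNAJB9 was at 1.15 and SEL1L at 1.07, and without vector 1 SEL1L was at 1.04. No synthesis gene was positive, and the 4 degradation genes were all positive, under each change of scaling to DESeq2 size factors, upper quartile or a correction for GC content and length.

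**Figure D1:**
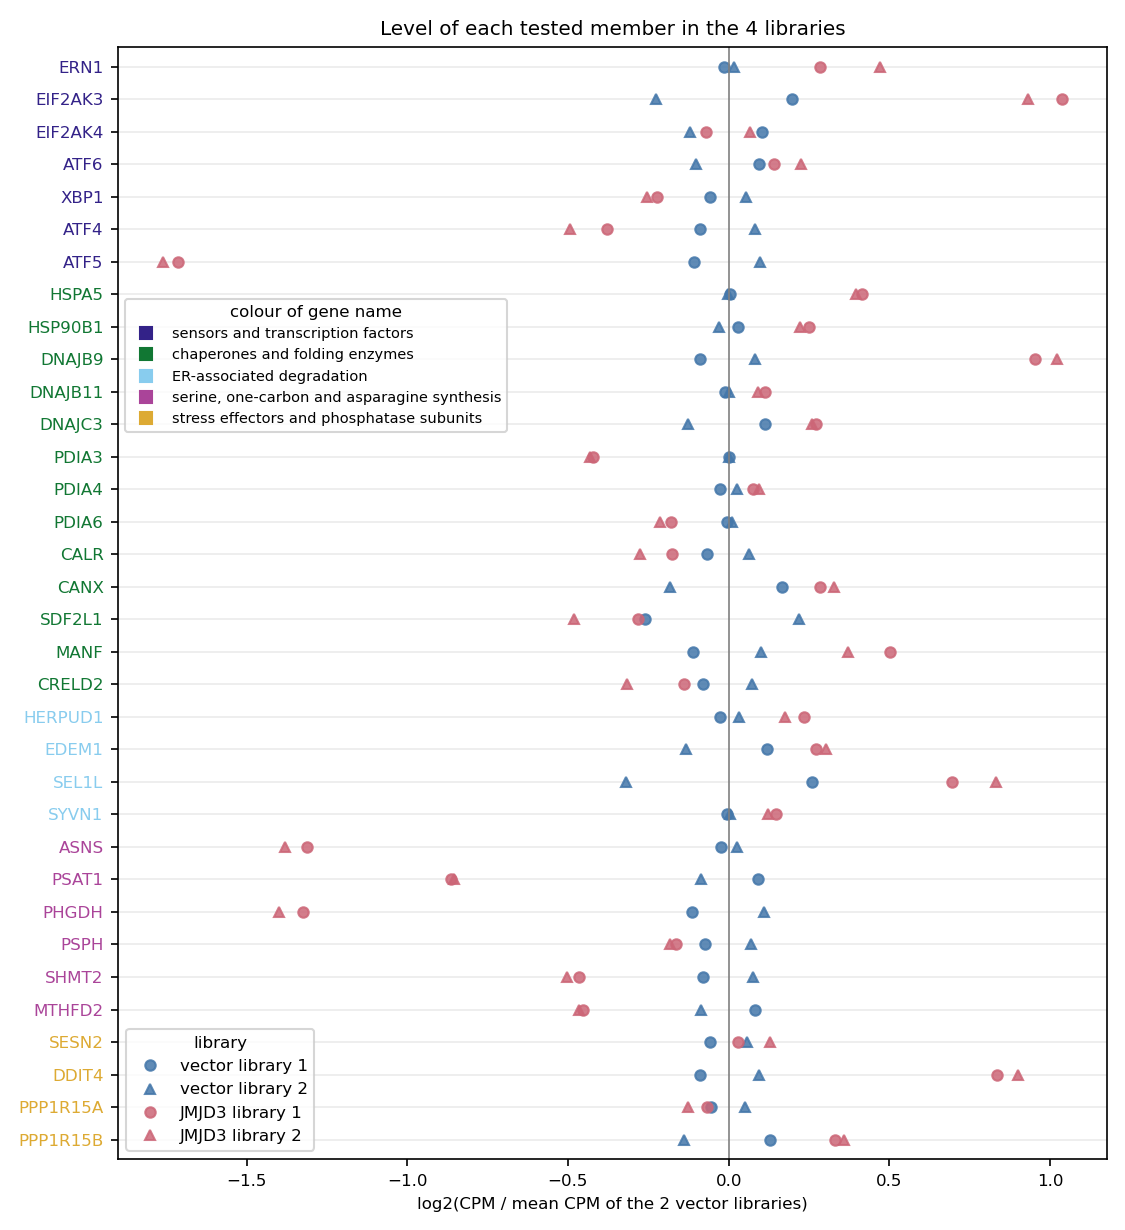
Level of the 34 tested members in each library, as log2 of its CPM over the mean of the 2 vector libraries (x axis), by role. ATF5, ASNS and PHGDH sit farthest left in both JMJD3 libraries (18.3 to 40.3 CPM against 47.9 to 109 CPM in the vector libraries), and EIF2AK3, DNAJB9 and DDIT4 farthest right.

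Per length, on the deposited FPKM scale (fragments per kilobase of transcript, scaled to the depth of the library), members covered a wide span. CALR, a calcium-binding chaperone, had the highest mean level, 2853 FPKM in vector cells and 2392 FPKM in JMJD3 cells. In vector cells it was followed by the disulfide isomerase PDIA3 (780 FPKM), the chaperone HSP90B1 (667 FPKM) and ATF4 (474 FPKM). The ER sensors lay far lower, with vector means of 7.45 FPKM for ATF6, 3.33 FPKM for EIF2AK3 and 0.991 FPKM for ERN1. NUPR1 was lowest, at 0.0136 FPKM. FPKM values summed over all genes to more in the vector libraries (1344845 and 1445366) than in the JMJD3 libraries (1004715 and 1018094), so FPKM gives the order of genes here, and changes computed from it appear only as alternatives to those from counts.

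**Figure D2:**
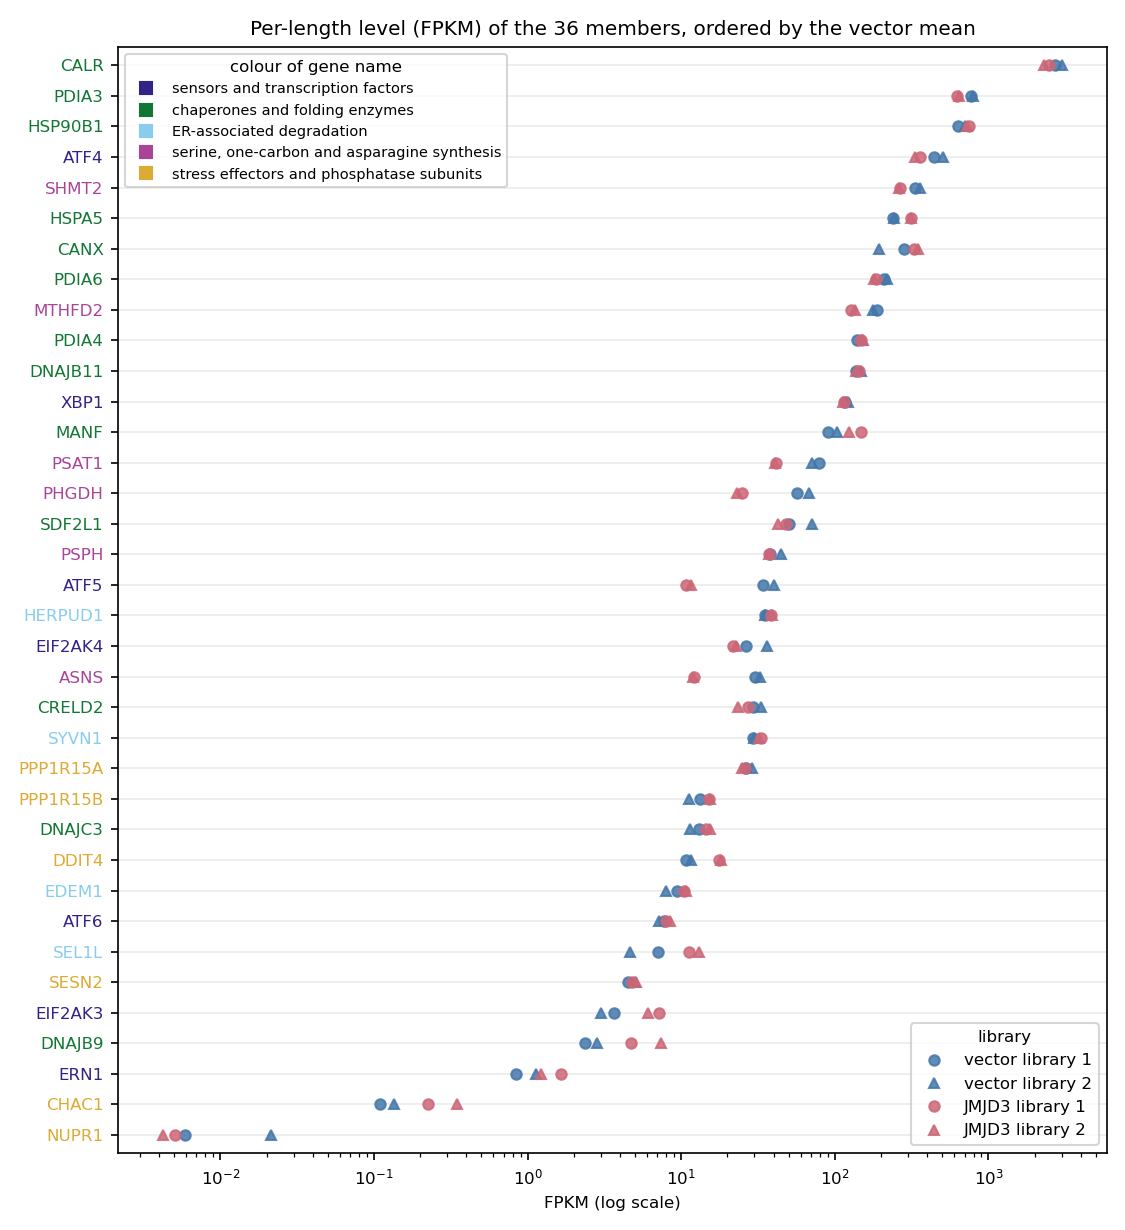
FPKM of the 36 members in each library on a log axis, ordered by the vector mean. CALR leads at 2853 FPKM and NUPR1 is lowest at 0.0136 FPKM, with the ER sensors ATF6, EIF2AK3 and ERN1 all under 10 FPKM.

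Among the sensors, EIF2AK3 (ENSG00000172071), which encodes the kinase PERK that slows translation under ER stress, measured 8.66 and 6.45 CPM in vector cells and 15.5 and 14.4 CPM in JMJD3 cells. The JMJD3 pair was well above both vector libraries. It was higher, with a log2 fold change of 0.99 (SE 0.16) and an adjusted p of 0.00508 in edgeR's quasi-likelihood test. ERN1 (ENSG00000178607), the nuclease IRE1 that splices XBP1 mRNA, measured 2.72, 2.78, 3.35 and 3.81 CPM, from 101, 106, 124 and 141 counts. Its JMJD3 libraries lay above its vector libraries, but its log2 fold change of 0.38 (SE 0.16) did not pass edgeR's quasi-likelihood test (adjusted p 0.1). ERN1 passed in no alternative, and was 0.23 with the correction for GC content and length.

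ATF6 (ENSG00000118217), a sensor that is cut to release a transcription factor, measured 56.5, 49.3, 58.3 and 61.9 CPM. The JMJD3 libraries were above the vector libraries by little, and vector 1 lay close to JMJD3 1. The log2 fold change was 0.18 (SE 0.11), with an adjusted p of 0.200 in edgeR's quasi-likelihood test. It passed at 0.25 without vector 1 (adjusted p 0.0361, range over the alternatives 0.0361 to 0.747), was 0.09 without vector 2 (adjusted p 0.349), and was -0.03 with a correction for GC content and length, chosen after seeing the data. EIF2AK4 (ENSG00000128829), the amino acid sensor GCN2, measured 115, 98.5, 102 and 112 CPM, so its groups overlapped. Its log2 fold change was 0.00 (SE 0.10) from counts and -0.46 from log2(FPKM + 1), neither past the threshold.

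XBP1 (ENSG00000100219), the factor made active by ERN1 splicing, measured 148 and 160 CPM in vector cells and 132 and 129 CPM in JMJD3 cells. Both JMJD3 libraries were lower than both vector libraries. The log2 fold change of -0.24 (SE 0.08) missed the threshold of edgeR's quasi-likelihood test at an adjusted p of 0.0514. It passed in 4 of 14 alternatives, among them -0.34 without vector 1 (adjusted p 0.00667), and was -0.18 without vector 2 (adjusted p 0.0509) and -0.07 in both limma fits on FPKM, of a range of 0.00667 to 0.689.

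ATF4 (ENSG00000128272), the shared effector of EIF2AK3 and EIF2AK4, measured 522 and 587 CPM in vector cells and 427 and 394 CPM in JMJD3 cells. The JMJD3 libraries were the lower pair, without overlap. It was lower, with a log2 fold change of -0.43 (SE 0.09) and an adjusted p of 0.0102 in edgeR's quasi-likelihood test. It missed the threshold without JMJD3 2 (-0.38, adjusted p 0.0963) and on log2(FPKM + 0.1) in limma (-0.45, adjusted p 0.0839), of a range of 1.91e-05 to 0.0963.

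ATF5 (ENSG00000169136), a related factor that is also controlled at translation, measured 57.5 and 66.4 CPM in vector cells and 18.9 and 18.3 CPM in JMJD3 cells. Every JMJD3 value was far under every vector value. This was the largest change among the 34 tested members, with a log2 fold change of -1.74 (SE 0.11) and an adjusted p of 0.000562 in edgeR's quasi-likelihood test, a fold of 0.3. Exons of NUP62 on the opposite strand cover 19.5% of the ATF5 exon bases, and NUP62 had 8112, 8451, 7668 and 7861 counts.

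Promoters were searched for 3 motifs of these pathways, on both strands of RefSeq windows (build GRCh38.p14) from 250 bases before to 50 after each start, held for 32 of the 36 members and not for PDIA3, PSPH, SHMT2 and NUPR1. The ER stress response element, known as a site of ATF6 with NF-Y, was read as CCAAT, 9 bases of any kind and CCACG. It was in 27 of 35116 windows (0.0769%), in those of 7 of the 32 members, of 1 of 32 other ER genes and of 0 of 17 other integrated stress response genes. The unfolded protein response element TGACGTGG was in 256 windows (0.729%), in none of the members', in those of 6 of the 32 other ER genes and of 1 of the 17. The core of the C/EBP-ATF response element, TGATGNAA, a known ATF4 site, was in 1270 windows (3.62%), in those of 4 of the 32 members, of 1 of the 32 other ER genes and of 4 of the 17. No match overlapped another motif's match. The percentages are of windows, while a gene was counted when any of its windows held a match. Some genes have several windows, so the percentages and the gene counts are in unlike units. A match is a description of letters in a window, and binding was not measured.

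The 8 matches to the ER stress response element in 7 members are shown, and these members had log2 fold changes of both signs. ERO1B, among the other ER genes, also held the element. The members were chosen by name as known parts of these pathways, so their share with a match is no test of them. Capitals mark the fixed letters CCAAT and CCACG, and each sequence reads 5′ to 3′ on the strand given.
XBP1 (chr22:28800603-28800621, minus strand): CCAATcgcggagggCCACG
HSPA5 (chr9:125241391-125241409, minus strand): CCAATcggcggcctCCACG
HSP90B1 (chr12:103930216-103930234, plus strand): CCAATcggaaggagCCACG
HSP90B1 (chr12:103930321-103930339, minus strand): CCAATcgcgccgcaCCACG
PDIA6 (chr2:10812853-10812871, minus strand): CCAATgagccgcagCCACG
CALR (chr19:12938384-12938402, minus strand): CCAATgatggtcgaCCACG
CANX (chr5:179698778-179698796, plus strand): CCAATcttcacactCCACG
CRELD2 (chr22:49918554-49918572, minus strand): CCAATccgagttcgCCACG

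Of these 7 members, HSPA5 and HSP90B1 were higher in JMJD3 cells, and XBP1, PDIA6, CALR, CANX and CRELD2 did not pass edgeR's test. In the XBP1, HSPA5, PDIA6 and CRELD2 windows, and in the nearer HSP90B1 match, the most upstream base in the gene's direction lay 52 to 89 bases before the start (52, 66, 86, 80 and 89). XBP1 and PDIA6 have 2 windows each, and only the start of the window with the match is meant. It lay 194 bases before the start in the other HSP90B1 match, 225 in CALR and, from 3 of the 4 starts listed for CANX, 151, 9 and 189 in CANX. Only exact matches were sought, so near matches are not marked in any sequence shown. For HSPA5, the 250 bases before the start are shown as the promoter of the main ER chaperone, with the same letters in capitals (RefSeq, GRCh38.p14).
HSPA5 (chr9:125241344-125241593, minus strand): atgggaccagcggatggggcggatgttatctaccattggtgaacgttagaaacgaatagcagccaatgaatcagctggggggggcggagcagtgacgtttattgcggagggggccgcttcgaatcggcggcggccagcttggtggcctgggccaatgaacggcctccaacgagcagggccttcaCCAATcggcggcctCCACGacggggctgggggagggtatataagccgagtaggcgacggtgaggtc

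HSPA5 (ENSG00000044574) encodes BiP, the ER chaperone that also holds the sensors inactive. It measured 875 and 871 CPM in vector cells and 1163 and 1149 CPM in JMJD3 cells. The libraries of each group lay close together and the groups were apart. It was higher, with a log2 fold change of 0.41 (SE 0.07) and an adjusted p of 0.00518 in edgeR's quasi-likelihood test. The value fell to 0.21 (adjusted p 0.0578) with the correction for GC content and length, and missed the threshold on log2(FPKM + 0.1) in limma (0.38, adjusted p 0.0825), of a range of 1.24e-05 to 0.0825.

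DNAJB9 (ENSG00000128590), a BiP co-chaperone that represses ERN1, measured 4.91 and 5.53 CPM in vector cells and 10.1 and 10.6 CPM in JMJD3 cells. The JMJD3 levels were well above the vector levels. It was higher, with a log2 fold change of 0.99 (SE 0.13) and an adjusted p of 0.00276 in edgeR's quasi-likelihood test. This was the largest rise among the chaperones.

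Smaller changes past the test were seen in 3 more folding genes. MANF, a secreted cofactor of BiP, measured 74.4, 86.3, 114 and 104 CPM, with both JMJD3 libraries above. HSP90B1, the ER form of HSP90, measured 1477, 1416, 1722 and 1688 CPM, also with both JMJD3 libraries above. PDIA3, which folds glycoproteins with CALR and CANX, measured 1335, 1334, 996 and 989 CPM, with both JMJD3 libraries below. Their log2 fold changes were 0.44, 0.24 and -0.43, with adjusted p of 0.0175, 0.0300 and 0.00430 in edgeR's quasi-likelihood test. HSP90B1 passed in only 4 of 14 alternatives, and its value was 0.00 with the correction for GC content and length (adjusted p 0.981, range over the alternatives 0.00154 to 0.981). It also missed the threshold without vector 2 (0.21), JMJD3 1 (0.22) or JMJD3 2 (0.25). MANF missed it in 5 of 14 alternatives, without JMJD3 1 (0.37, adjusted p 0.170) or JMJD3 2 (0.51, adjusted p 0.0507), in both limma fits on FPKM (0.47 in each, adjusted p 0.0634 and 0.103) and with no filter (0.44, adjusted p 0.0630), of a range of 0.000197 to 0.170. PDIA3 missed it with both limma fits on FPKM (-0.30 in each, adjusted p 0.0713 and 0.130, of a range of 5.65e-06 to 0.130).

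The other 8 folding genes did not pass edgeR's test. Their groups did not overlap, as for 74.4% of all tested genes. The co-chaperones DNAJB11 and DNAJC3, the isomerase PDIA4 and the membrane lectin CANX had positive log2 fold changes, from 0.08 to 0.31. Without vector 1, PDIA4 went from 0.08 to 0.02 and DNAJB11 from 0.10 to 0.06, and neither passed in any alternative. The isomerase PDIA6, the lectin CALR, the BiP partner SDF2L1 and the redox factor CRELD2 had negative ones, from -0.38 to -0.20. CALR, the most abundant, measured 4292, 4698, 3974 and 3711 CPM, with a log2 fold change of -0.23. CANX measured 862, 677, 936 and 966 CPM, where vector 2 was the lowest. SDF2L1 measured 30, 41.8, 29.5 and 25.7 CPM, where vector 2 was the highest and vector 1 lay next to JMJD3 1. Without vector 1, 6 of the 8 passed, DNAJC3 at 0.35, CANX at 0.45, PDIA6 at -0.24, CALR at -0.33, SDF2L1 at -0.64 and CRELD2 at -0.34. Without vector 2 none of these 6 passed, and the values were 0.15, 0.14, -0.19, -0.16, -0.12 and -0.15 in the same order. Counting the test without vector 1, CALR and CANX each passed in 4 of 14 alternatives, PDIA6 and SDF2L1 in 3, and DNAJC3 and CRELD2 in 2. Under the correction for GC content and length, the log2 fold change of DNAJB11 was -0.14 and that of PDIA4 -0.00373, both on the other side of 0. That correction also lowered DNAJC3 to 0.04 and CANX to 0.10, while CANX was at 0.54 in both limma fits on FPKM.

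ER-associated degradation removes proteins that do not fold. SEL1L (ENSG00000071537), the scaffold of its main ubiquitin ligase, measured 47.6 and 31.9 CPM in vector cells and 64.4 and 70.9 CPM in JMJD3 cells. The JMJD3 libraries were above, while the vector libraries stood well apart from each other. It was higher, with a log2 fold change of 0.77 (SE 0.18) and an adjusted p of 0.0177 in edgeR's quasi-likelihood test. Without vector 2, the lowest library, the value was 0.51, and without vector 1 it was 1.04. With no filter on low counts it was 0.76 and missed the threshold (adjusted p 0.0879, range over the alternatives 5.98e-06 to 0.0879).

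The ligase itself, SYVN1, measured 79.7, 80.3, 88.7 and 87.1 CPM. HERPUD1, which recruits the ligase complex, measured 35.8, 37.3, 42.9 and 41.2 CPM, and the mannosidase-like lectin EDEM1 54.7, 46, 60.9 and 62.2 CPM. All 3 had both JMJD3 libraries above both vector libraries, with log2 fold changes of 0.14, 0.20 and 0.29 that did not pass edgeR's test. SYVN1 passed in no alternative, and was 0.09 without vector 1 and 0.05 with the correction for GC content and length. Under that correction HERPUD1 fell to 0.11 and EDEM1 to 0.11. HERPUD1 passed without vector 2 (0.23, adjusted p 0.0466, range over the alternatives 0.0466 to 0.626) and in no other alternative, and was 0.14 without vector 1. EDEM1 passed in 3 of 14 alternatives, among them upper quartile scaling (0.33, adjusted p 0.0459) and the test without vector 1 (0.38, adjusted p 0.0071, range 0.0071 to 0.405), and was 0.17 without vector 2 (adjusted p 0.0804).

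Synthesis of serine, folate one-carbon units and asparagine is a known output of ATF4. ASNS (ENSG00000070669), asparagine synthetase, measured 47.9 and 49.6 CPM in vector cells and 19.6 and 18.7 CPM in JMJD3 cells. Both JMJD3 libraries were far under both vector libraries. It was lower, with a log2 fold change of -1.35 (SE 0.10) and an adjusted p of 0.000823 in edgeR's quasi-likelihood test. A long noncoding RNA on the same strand, absent from the table, shares 49.3% of the ASNS exon bases.

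The matches to the C/EBP-ATF response element core are shown with 10 bases on each side, since ASNS holds a match while PSAT1, PHGDH and MTHFD2, the other synthesis genes with a window, hold none. Capitals mark TGATGNAA, and each sequence reads 5′ to 3′ on the strand given (RefSeq, GRCh38.p14).
ASNS (chr7:97872459-97872486, minus strand): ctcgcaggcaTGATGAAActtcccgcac
HERPUD1 (chr16:56931956-56931983, minus strand): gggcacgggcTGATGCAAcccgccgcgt
CHAC1 (chr15:40953252-40953279, minus strand): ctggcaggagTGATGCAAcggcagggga
PPP1R15B (chr1:204412027-204412054, minus strand): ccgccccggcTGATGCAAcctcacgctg

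Counted in the same way, the ASNS match lay 68 bases before the start of 1 of its 2 windows and is not in the other, and those of HERPUD1, CHAC1 and PPP1R15B 176, 209 and 227 bases before theirs. The 250 bases before the ASNS start are shown for the synthesis gene with a match, with the same letters in capitals (RefSeq, GRCh38.p14).
ASNS (chr7:97872409-97872658, minus strand): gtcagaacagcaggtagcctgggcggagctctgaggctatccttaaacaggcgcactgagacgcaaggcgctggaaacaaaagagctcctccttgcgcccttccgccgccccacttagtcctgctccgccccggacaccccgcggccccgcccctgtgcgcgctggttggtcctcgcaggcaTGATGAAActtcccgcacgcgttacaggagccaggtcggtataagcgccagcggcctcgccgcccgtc

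PHGDH (ENSG00000092621), the first enzyme of serine synthesis, measured 93.3 and 109 CPM in vector cells and 40.3 and 38.3 CPM in JMJD3 cells. Both JMJD3 libraries were far under both vector libraries. It was lower, with a log2 fold change of -1.36 (SE 0.11) and an adjusted p of 0.000973 in edgeR's quasi-likelihood test. PSAT1 (ENSG00000135069), the next enzyme, measured 148 and 131 CPM in vector cells and 76.3 and 76.9 CPM in JMJD3 cells. Its JMJD3 libraries were nearly equal and under both vector libraries. It was lower, with a log2 fold change of -0.86 (SE 0.09) and an adjusted p of 0.00182 in edgeR's quasi-likelihood test.

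PSPH, the last enzyme of serine synthesis, measured 48.2, 53.2, 45.3 and 44.7 CPM. Its JMJD3 libraries were under the vector libraries by little, and its log2 fold change of -0.17 did not pass edgeR's quasi-likelihood test (adjusted p 0.200). It passed without vector 1 (-0.28, adjusted p 0.0168) and with the correction for GC content and length (-0.25, adjusted p 0.0204), of a range of 0.0168 to 0.664 over the alternatives, and was -0.10 without vector 2. The mitochondrial one-carbon enzyme SHMT2 measured 405, 451, 310 and 302 CPM, and its partner MTHFD2 326, 290, 225 and 223 CPM. Both had the JMJD3 libraries below the vector libraries. They were lower, with log2 fold changes of -0.48 and -0.46 and adjusted p of 0.00585 and 0.00747 in edgeR's quasi-likelihood test. MTHFD2 missed the threshold without JMJD3 2 (-0.46) and with limma on log2(FPKM + 0.1) (-0.47, adjusted p 0.0615), of a range of 3.79e-05 to 0.0615. SHMT2 missed it with that limma fit (-0.39, adjusted p 0.0849, range 1.06e-05 to 0.0849). The median log2 fold change of the 6 synthesis genes was -0.67, beside 0.04 for all tested genes.

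**Figure D3:**
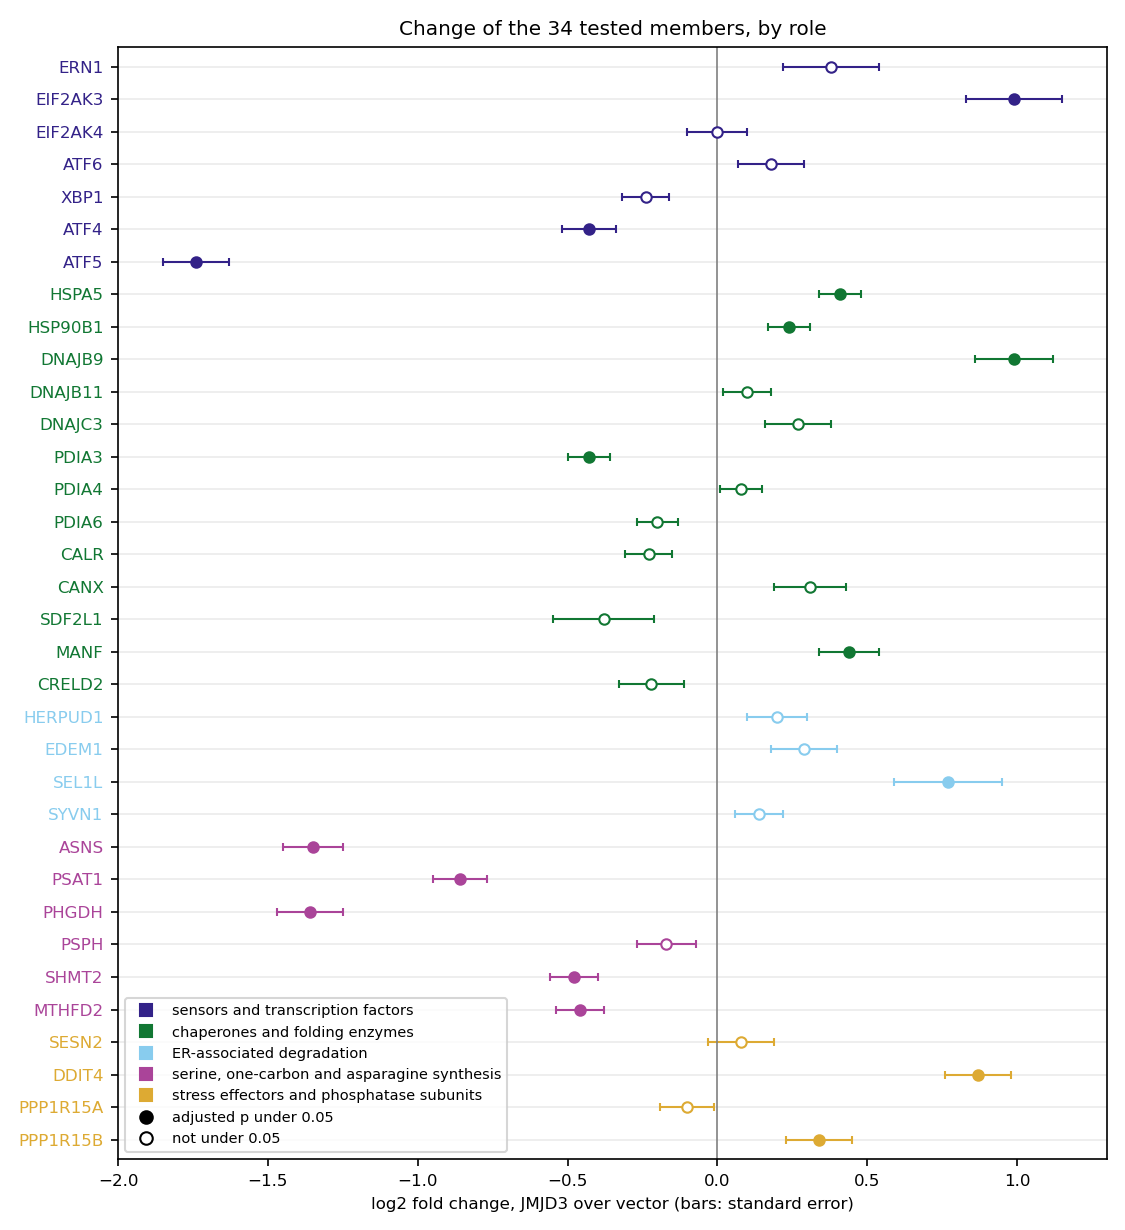
Log2 fold change of JMJD3 over vector with its SE (bars) for the 34 tested members by role, with filled points for an adjusted p under 0.05 in edgeR's test. All 6 synthesis genes lie left of 0, from -1.36 to -0.17, and the 4 degradation genes right of it, from 0.14 to 0.77, while the sign of EIF2AK4, ATF6, DNAJB11, PDIA4 and SESN2 changed with the correction for GC content and length, and that of EIF2AK4 also with DESeq2 size factors.

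Among the stress effectors, DDIT4 (ENSG00000168209), an inhibitor of mTORC1 signalling, measured 12.7 and 14.4 CPM in vector cells and 24.1 and 25.2 CPM in JMJD3 cells. Both JMJD3 libraries were well above both vector libraries. It was higher, with a log2 fold change of 0.87 (SE 0.11) and an adjusted p of 0.00267 in edgeR's quasi-likelihood test. PPP1R15B, the constant phosphatase subunit that reverses the translation block, measured 66.2, 55, 76.2 and 77.7 CPM. Both of its JMJD3 libraries were above the vector libraries. Its log2 fold change of 0.34 (SE 0.11) passed edgeR's quasi-likelihood test at an adjusted p of 0.0461, but only 6 of 14 alternatives kept it, and it missed the threshold without JMJD3 1 (0.36, adjusted p 0.217) or JMJD3 2 (0.33, adjusted p 0.277), of a range of 0.00371 to 0.277. It was 0.22 without vector 2 (adjusted p 0.0397), 0.45 without vector 1 (adjusted p 0.00430), and 0.15 with the correction for GC content and length.

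The stress-induced phosphatase subunit PPP1R15A measured 55.7, 59.9, 55.2 and 52.9 CPM, with JMJD3 1 just under vector 1, and a log2 fold change of -0.10. SESN2, a leucine sensor, measured 14.5, 15.7, 15.4 and 16.5 CPM, and its groups overlapped, with a log2 fold change of 0.08. Neither passed edgeR's test. PPP1R15A passed only with the correction for GC content and length (-0.20, adjusted p 0.0298, range over the alternatives 0.0298 to 0.870), and was -0.19 without vector 1 and -0.04 without vector 2. CHAC1, a glutathione-degrading enzyme, had 5, 6, 8 and 17 counts, and the stress protein NUPR1 had 1, 4, 1 and 1 counts. Both were under the filter on low counts. With no filter, over 27095 genes, neither passed edgeR's quasi-likelihood test, CHAC1 at a log2 fold change of 1.19 (SE 0.54, adjusted p 0.242) and NUPR1 at an adjusted p of 0.522.

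Of the 16 members past the test, 7 (EIF2AK3, ATF5, DNAJB9, ASNS, PSAT1, PHGDH and DDIT4) also passed under all 14 alternatives, and none of the 16 changed sign in any. The correction for GC content and length moved the median of all tested genes by -0.115, and under it 5 members were higher and 15 lower, beside 21.1% and 32.4% of all tested genes. The other 9 missed the threshold in at least 1 alternative.

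DDIT3 (ENSG00000175197), the factor CHOP that ATF4 raises under long stress and that is not among the 36, measured 9.36 and 9.72 CPM in vector cells and 18.6 and 16.6 CPM in JMJD3 cells. Both JMJD3 libraries were well above both vector libraries. It was higher, with a log2 fold change of 0.88 (SE 0.12) and an adjusted p of 0.00272 in edgeR's quasi-likelihood test. It thus lay on the other side of 0 from ATF4 and the synthesis genes.

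A list of 24 other integrated stress response genes, DDIT3 included, had 19 tested, 4 higher (21.1%) and 7 lower (36.8%), beside 21.6% and 19.1% of all tested genes, with a median log2 fold change of -0.20. The cystine transporter gene SLC7A11 (ENSG00000151012) measured 39.9, 28.7, 12.9 and 14 CPM and was lower (-1.35, SE 0.17, adjusted p 0.00250 in edgeR's quasi-likelihood test). VLDLR (ENSG00000147852), a lipoprotein receptor, measured 9.85, 8.31, 4.02 and 3.05 CPM and was lower (-1.36, SE 0.18, adjusted p 0.00277 in the same edgeR test). Both had the JMJD3 libraries clearly below, like ASNS and PHGDH. STC2 (ENSG00000113739), a secreted glycoprotein, measured 0.378, 0.498, 2.32 and 2.54 CPM, from 14, 19, 86 and 94 counts, and was higher (2.46, SE 0.25, adjusted p 0.00157 in the same edgeR test). KLHL24 (ENSG00000114796), a ubiquitin ligase adaptor, measured 4.99, 4.35, 8.83 and 9.67 CPM and was higher (0.99, SE 0.14, adjusted p 0.00335 in the same edgeR test). On log2(FPKM + 1) the values were smaller, 0.49 for STC2, 0.57 for KLHL24 and -0.82 for VLDLR, with adjusted p of 0.0246, 0.0280 and 0.0164 in limma, of ranges of 7.47e-12 to 0.0246, 7.08e-06 to 0.0390 and 2.26e-09 to 0.0287 over the alternatives. ALDH1L2, GDF15, FGF21, ADM2 and LAMP3 had too few counts to be tested.

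A list of 36 other ER genes had 35 tested, 4 higher (11.4%) and 8 lower (22.9%), beside 21.6% and 19.1% of all tested genes, with a median log2 fold change of -0.05, and WFS1 had 0 counts. ATF6B (ENSG00000213676), the paralogue of ATF6, measured 81.1, 93.5, 133 and 130 CPM and was higher (0.59, SE 0.10, adjusted p 0.00520 in edgeR's quasi-likelihood test). EDEM3 (ENSG00000116406), related to EDEM1, measured 45.2, 26.4, 69.4 and 73.4 CPM and was higher (0.99, SE 0.23, adjusted p 0.0156 in the same edgeR test). Like SEL1L, EDEM3 had vector 2 far under vector 1. Its value was 0.66 without vector 2 and 1.39 without vector 1. With no filter it was 0.99 and missed the threshold (adjusted p 0.0847, range over the alternatives 1.94e-08 to 0.0847). The prolyl isomerase PPIB (ENSG00000166794) measured 762, 888, 463 and 430 CPM and was lower (-0.89, SE 0.10, adjusted p 0.00184 in the same edgeR test). The translocon genes SEC61B (ENSG00000106803; 48.4, 59, 32.7 and 31.8 CPM) and SEC61A1 (ENSG00000058262; 279, 299, 198 and 190 CPM) were lower by log2 fold changes of -0.74 (SE 0.12) and -0.57 (SE 0.08), with adjusted p of 0.00551 and 0.00298 in the same edgeR test. SEC61A1 missed the threshold with limma on log2(FPKM + 0.1) (-0.55, adjusted p 0.0502, range 1.76e-06 to 0.0502). The groups did not overlap for these 5, which were named for the size of their change, nor for 26 of the 35 in all, beside 74.4% of all tested genes.

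**Figure D4:**
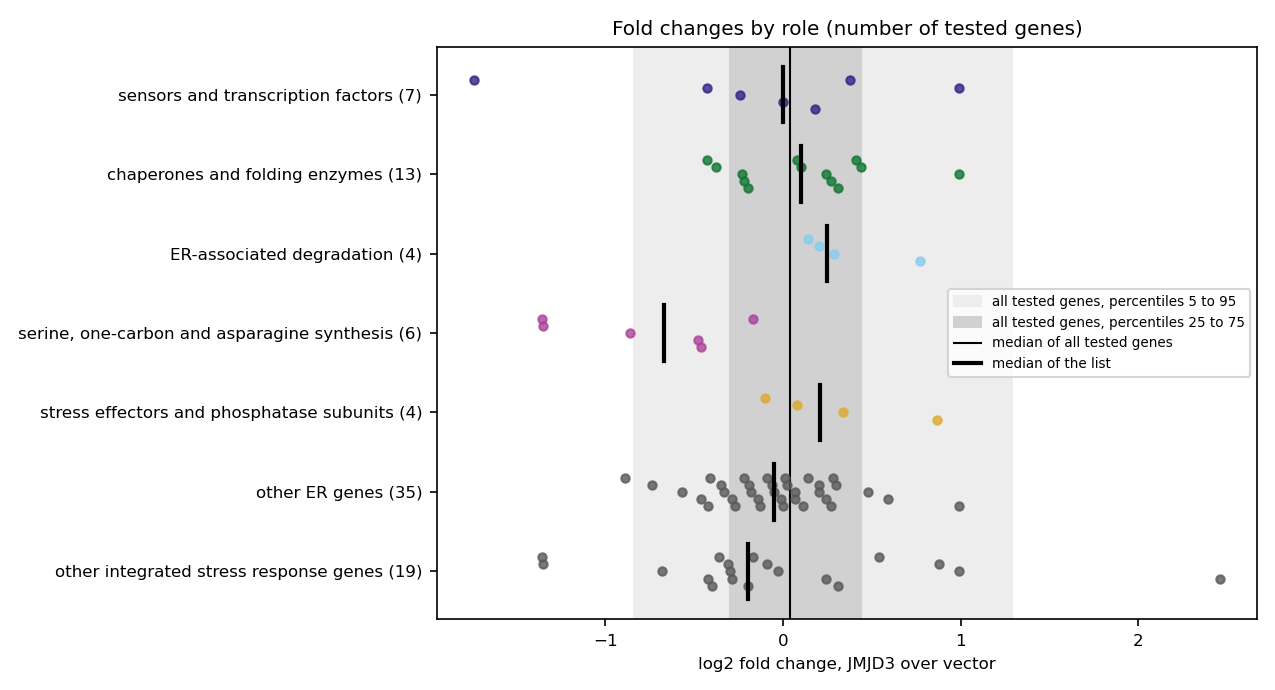
Log2 fold change of each tested gene by role and list (points), with the list's median (thick bar), over percentiles 5 to 95 (light) and 25 to 75 (dark) of all 15246 tested genes. The synthesis genes have a median of -0.67, below percentile 25 of all tested genes (-0.30), whose median is 0.04. Medians of the degradation genes (0.25), the chaperones (0.10) and the other ER genes (-0.05) lie within percentiles 25 to 75 (-0.30 to 0.44). Of the 4 degradation genes 1 was higher, and differences between lists were not tested. With the correction for GC content and length these 4 ranged from 0.05 (SYVN1) to 0.56 (SEL1L).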

How the data were processed

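The authors' deposited table gave an estimated count and an FPKM per gene and library. The submitters' notes name CASAVA 1.8, TopHat2 2.0.4, RSEM, edgeR and GRCh38, while the study's methods name STAR, hg19, HTSeq and DESeq2, and the series design names BWA and Cufflinks, so the route is unsettled. The labels name DMEM and Trizol, the methods RPMI-1640 and a column kit. The authors' own comparison columns (log fold change, p, FDR, mean FPKM) were not used, all per-sample columns were, and 0 genes lacked a name.

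Of the nonzero deposited counts, 98.4% were not whole (tolerance 1e-06), and they were rounded. In R 4.3.3, edgeR 4.0.16 kept 15246 of 60662 genes (filterByExpr), scaled by TMM and ran its quasi-likelihood test on the 2 groups, with Benjamini-Hochberg adjustment over all genes tested. The SE is the size of the log2 fold change over the square root of F. Alternatives were DESeq2 1.42.0 size factors and its Wald test, upper quartile scaling, limma 3.58.1 on log2 FPKM with a pseudocount of 1 or of 0.1, a test with no filter, at least 10 counts in every library, a replicate block, each library left out, thresholds of 1.5-fold, 2-fold and an unadjusted p, and, chosen after seeing the data, a GC content and length correction and a crossed replicate block. GC content, length and exon overlaps come from GENCODE release 44 on GRCh37, and promoters from RefSeq on GRCh38.p14. Tables and figures used Python 3.11.15, pandas 2.3.3 and matplotlib 3.10.9.

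Full values are given for KDM6B, for members with an adjusted p under 0.05 and a log2 fold change of at least 0.5 in size, for ATF4, XBP1, ATF6, ERN1, EIF2AK3, HSPA5 and DDIT3, and for up to 5 genes of each other list with the largest change at an adjusted p under 0.05. Members, lists and this rule were chosen with earlier results of these data known. The test was checked on simulated counts, and the pass mark of that check was set at 3-fold changes after a first one at 2-fold was missed.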

Additional observations from a re-analysis of the deposited data

How the results depend on the processing

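With 2 libraries a group of unknown origin, small changes depend on the method. Of 16 members past the test, 7 stayed past it under all 14 alternative tests, 9 missed it in at least 1, and 12 of the other tested members passed in at least 1. Over all members and alternatives, 399 values kept their sign and side of the threshold, 33 kept the sign but missed it, 30 kept the sign and newly passed, and 14 changed sign, none of these past the threshold. KDM6B passed under all 14 (1.19 to 1.58). The cause was not tested unless fewer genes, libraries or a stricter threshold show it.

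Genes higher and lower numbered 3292 and 2906, and members 8 and 8. The balance moved with the scaling. DESeq2 size factors gave 3096 and 3130 genes, and members 6 and 10. Upper quartile scaling gave 3603 and 2458 genes, and members 10 and 8. With limma on log2(FPKM + 1) they numbered 1950 and 1919, and members 5 and 7, and on log2(FPKM + 0.1) 1573 and 1165, and members 4 and 4. With no filter they were 1893 and 1776 (27095 genes tested), and members 4 and 8. The GC content and length correction, chosen after seeing the data, gave 3214 and 4937, and members 5 and 15. At 1.5-fold the counts were 2296 and 1205, and members 4 and 4, and at 2-fold 1151 and 430, and members 0 and 3 (11 and 11 by an unadjusted p under 0.05). Each library left out in turn gave ranges of 1920 to 4343 higher and 1133 to 4183 lower, members 5 to 12 and 6 to 14, and KDM6B 1.36 to 1.58, where the lone sample is assumed to vary like the other group. The replicate block gave 3267 and 2415, and members 7 and 8, of which 6 and 8 were shared. Under that block HSP90B1 (0.24) and PPP1R15B (0.35) missed the threshold, and CANX (0.32) newly passed. The crossed replicate block, chosen after seeing the data, gave 4335 and 3772, and members 11 and 12.

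EIF2AK4 changed sign to -0.03 with DESeq2 size factors and its Wald test, -0.46 and -0.48 with limma at pseudocounts 1 and 0.1, -0.10 without vector 2, -0.06 without JMJD3 2 (-0.10 to 0.08 over the libraries left out) and -0.15 with the GC content and length correction. That correction also changed the sign of ATF6 (-0.03), DNAJB11 (-0.14), PDIA4 (-0.00373) and SESN2 (-0.01). DNAJB11 was -0.03 in both limma fits, and SESN2 -0.02 without vector 1 (-0.02 to 0.14 over the libraries left out). Across genes, which are not independent replicates, Spearman's rho of length was -0.39 with the vector 2 to vector 1 ratio, 0.306 with JMJD3 2 to JMJD3 1 and 0.129 with the JMJD3 to vector change.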
